A study of Mus musculus with 12 samples.

Results

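Liver senses drugs, bile acids and hormones through ligand-activated transcription factors, and 10 genes of that system were followed here: Ahr, Arnt, Tiparp, Nr1i2, Nr1i3, Nr1h4, Rxra, Hnf4a, Nr5a2 and Nr3c1. They were taken by symbol, as every probe set that the platform annotation pairs with 1 of these genes and no other, which gave 31 probe sets of 10 genes out of 18193 genes on the array. No measured value entered that choice. Of the 31 probe sets, 24 were bright enough to be tested and 7 were not. Ahr had 2 of 2 probe sets tested, Arnt 3 of 5, Tiparp 2 of 3, Nr1i2 2 of 2, Nr1i3 1 of 1, Nr1h4 1 of 1, Rxra 2 of 3, Hnf4a 4 of 4, Nr5a2 3 of 4 and Nr3c1 4 of 6.

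The study compared genetic with pharmacological activation of Nrf2, the transcription factor that Keap1 marks for degradation, by setting mice without hepatocyte Keap1 beside mice given the triterpenoid CDDO-Im. Livers came from 12 male C57Bl/6J mice aged 9 weeks, 3 in each of 4 groups, with 1 array per mouse. The group called CKO carried Albumin-Cre and Keap1(flox/-), so that recombination was driven by the albumin promoter of hepatocytes while other cells kept 1 floxed and 1 null allele. The control group is labelled as the genetic control and is called WT here, but it also carried Albumin-Cre and a floxed allele, Keap1(flox/+), so no group lacked Cre. Mice of each genotype received either vehicle (DMSO, Cremophor-EL and PBS) or 30 µmol CDDO-Im per kg by gavage and were killed 6 h later. The labels do not name litters or extraction days, so the errors below measure the spread between these 12 mice.

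The AhR is a cytoplasmic sensor of planar aromatic compounds that pairs with ARNT in the nucleus and is silenced by its own target TIPARP. CAR (encoded by Nr1i3) and PXR (Nr1i2) sense drugs, and FXR (Nr1h4) senses bile acids. All 3 bind DNA with RXRα (Rxra) as partner and switch on cytochromes P450, conjugating enzymes and transporters. HNF4α (Hnf4a) and LRH-1 (Nr5a2) maintain hepatocyte gene expression, and the glucocorticoid receptor (Nr3c1) carries the stress and fasting hormone signal.

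The upstream sequences of the 2 genes with a called change are printed first. RefSeq promoters (GRCm38.p6) were in the table for 8 of the 10 genes, with 11 start sites, and the 250 bases before each start are given on the gene's strand. Capitals mark matches, on either strand, to TGANNNNGC, the core of the antioxidant response element bound by Nrf2, or to GCGTG, the core bound by AhR and ARNT. The Nr1i3 window, at chr1:171213720-171213969 on the plus strand, holds 2 matches to the first and 0 to the second. The Rxra windows, at chr2:27676951-27677200 and chr2:27709042-27709291 on the plus strand, hold 0 of either. TGANNNNGC stands in 35.2% and GCGTG in 28.2% of all 32851 promoter windows of this length, so a match describes these letters and says nothing of binding, and the lack of one says only that the letters are not in the window.
Nr1i3: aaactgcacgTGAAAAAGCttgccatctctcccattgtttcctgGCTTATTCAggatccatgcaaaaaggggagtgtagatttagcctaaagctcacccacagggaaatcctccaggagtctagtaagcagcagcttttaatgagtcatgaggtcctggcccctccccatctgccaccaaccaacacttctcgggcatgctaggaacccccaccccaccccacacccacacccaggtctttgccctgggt
Rxra, start 1: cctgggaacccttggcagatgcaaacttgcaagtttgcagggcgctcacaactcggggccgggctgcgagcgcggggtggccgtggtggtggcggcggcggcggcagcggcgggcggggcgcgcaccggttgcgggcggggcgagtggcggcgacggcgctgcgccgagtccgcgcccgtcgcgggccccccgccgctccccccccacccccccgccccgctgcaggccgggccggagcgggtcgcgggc
Rxra, start 2: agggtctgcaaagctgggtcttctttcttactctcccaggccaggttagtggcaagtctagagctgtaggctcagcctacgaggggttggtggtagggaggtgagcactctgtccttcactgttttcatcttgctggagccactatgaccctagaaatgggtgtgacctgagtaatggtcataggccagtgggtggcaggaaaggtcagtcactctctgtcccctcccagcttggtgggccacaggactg

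The values are log2 signals, so a difference of 1 is a 2-fold change. A change was called where limma's adjusted p, over 13298 tested probe sets that name 1 gene, was under 0.05. The targeted gene followed the labels: the Keap1 probe set 1450746_at read 7.92 to 8.17 in WT livers on vehicle and 8.46 to 8.89 on CDDO-Im, with 2.74 to 2.87 in CKO livers on vehicle and 2.90 to 3.31 on CDDO-Im. The second Keap1 probe set, 1450747_at, read 6.58 to 7.48, 7.76 to 8.08, 6.15 to 6.51 and 6.28 to 6.45 in the same order. For CKO against WT vehicle livers 1450746_at was called, at -5.23, and 1450747_at was not, at -0.68 (limma adjusted p = 1.81e-08 and 0.0734). Both were called up by CDDO-Im in WT livers, by 0.66 and 0.84 (limma adjusted p = 0.0250 and 0.0451). Nqo1, a quinone reductase and standard Nrf2 target, rose by 4.86 ± 0.35 (log2 change ± SE) in CKO against WT vehicle livers and by 3.45 ± 0.35 in WT livers given CDDO-Im (limma adjusted p = 5.31e-05 and 0.000758). Replicates correlated at 0.996 or more over all probe sets. Array medians were 2.32 to 2.34, near the lowest value of 2.22, so this correlation does not measure the spread of single genes between mice. The number of arrays also limits the precision. All 7 measured hepatocyte markers passed the brightness filter, and their summed linear signal ran from 279300 to 294300 and, under CDDO-Im, 305200 to 314400 in WT livers, and from 283900 to 307600 and, under CDDO-Im, 293300 to 308000 in CKO livers. Among 7 measured lymphocyte markers, Cd3e, Cd3g, Cd79a and Nkg7 stood at the lowest value of the table on every array. The summed macrophage markers, 9 of 10 tested, ran from 8234 to 15830 and, under CDDO-Im, 11370 to 12660 in WT livers, and from 10610 to 16030 and, under CDDO-Im, 10950 to 16460 in CKO livers, and their part in the results below was not tested. Of 30 tested markers of 5 cell types, chosen with results of these data known, 4 were called by limma for Keap1 loss, beside 6.37% of all genes, and 2 for CDDO-Im in WT livers, beside 3.72%. With Keap1 loss Marco of macrophages (2.304), Lyve1 of endothelial cells (2.24) and Tdo2 of hepatocytes (0.34) rose and Reln of stellate cells fell (-0.51), and with CDDO-Im Lyve1 (2.57) and Tdo2 (0.34) rose. Marco had a mean of 4.86 in WT vehicle livers, below the brightness filter of log2 5. The other 8 macrophage markers were not called for Keap1 loss, at -0.04 to 0.56. Nor were the other 5 stellate markers (-0.63 to 0.17) or the other 6 hepatocyte markers (-0.92 to 0.16). The other 6 tested endothelial markers were called neither for Keap1 loss nor for CDDO-Im in WT livers. For Keap1 loss Clec4g, Stab2, Kdr and Cdh5 stood at -0.21, -0.18, -0.30 and -0.04, and Tek and Stab1 at 0.08 and 0.26. In bulk tissue, fewer cells of a type and less RNA per cell cannot be told apart.

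Calls among the receptor probe sets were few, as they were among all tested probe sets. Loss of Keap1 raised 1 of the 24 tested probe sets, that of Nr1i3, by 0.50 on the log2 scale, and the other 23 were not called, beside 6.23% called of all tested probe sets. CDDO-Im called 0 of 24 in WT livers (background 3.96%), although 5 of the 24 had an unadjusted p under 0.05 (19.3% of all). In CKO livers CDDO-Im called 0 of 24 and 0 of 13298 probe sets by limma (background 0%), with 2 of 24 and 1141 of 13298 under 0.05 before adjustment. Between the genotypes under CDDO-Im, 0 of 24 were called and 3 were under 0.05 before adjustment (background 1.47% called, 15.9% under 0.05). In CKO vehicle against WT CDDO-Im livers 1 of 24, a probe set of Rxra, fell, and 23 were not called (background 3.73%). The interaction of genotype and treatment called 0 of 24, with 5 under 0.05 before adjustment (background 0.316% called, 10.3% under 0.05).

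Precision was enough to bound most of these changes. The 95% confidence interval lay within a 2-fold change in either direction for 21 of 24 probe sets in CKO against WT vehicle livers, for 21 in WT CDDO-Im against WT vehicle, for 22 in CKO CDDO-Im against CKO vehicle, and for 24 in CKO against WT under CDDO-Im. Over all tested probe sets the matching shares were 88.4%, 89.3%, 92.4% and 91%. The interaction was looser, with 16 of 24 intervals within 2-fold against 81.8% of all. The median size of change was 0.16 for the receptor probe sets and 0.16 for all probe sets in CKO against WT vehicle livers. It was 0.24 against 0.15 for CDDO-Im in WT livers, 0.17 against 0.11 for CDDO-Im in CKO livers and 0.15 against 0.14 between the genotypes under CDDO-Im. The residual SD over the 4 groups was 0.20 at the median of the 24, from 0.04 for Rxra 1454773_at to 0.61 for Nr1i2 1425723_at, beside 0.17 over all tested probe sets, and 18 of 24 lay above that last value.

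**Figure D1:**
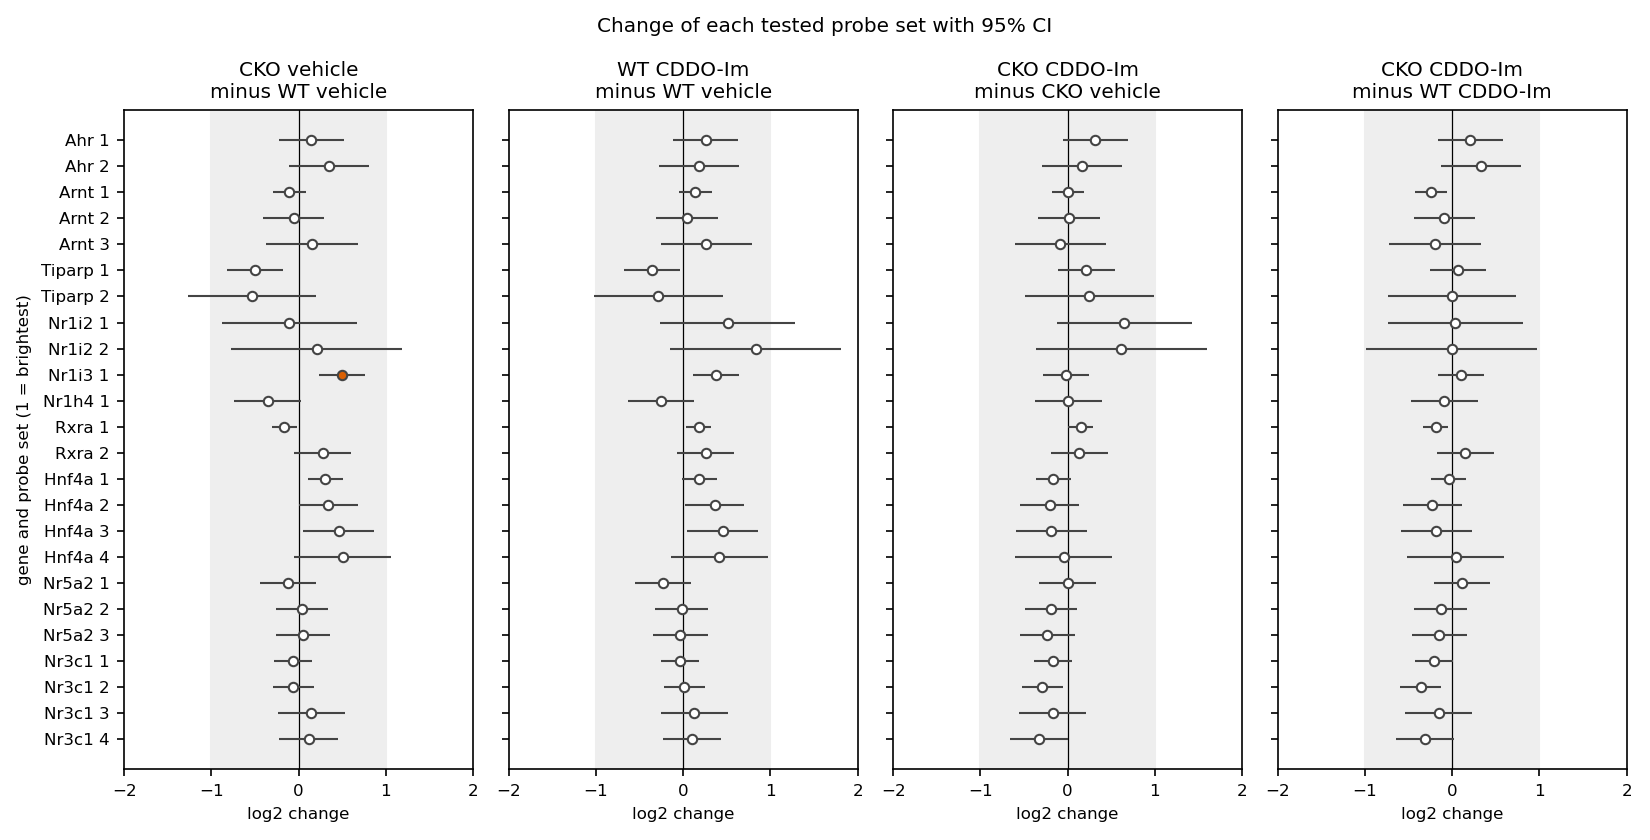
Log2 change (x axis) of each of the 24 tested probe sets (y axis, numbered within a gene from the brightest) in 4 comparisons, with 95% confidence intervals from limma; filled points are called at an adjusted p under 0.05 and the grey band spans a 2-fold change in either direction. The filled point is Nr1i3 in CKO against WT vehicle livers, at 0.50, and the widest intervals belong to Nr1i2.

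Groups of 3 that do not overlap were counted as a second description. This held for 6 of 24 receptor probe sets in CKO against WT vehicle livers (background 25.7%), for 7 of 24 in WT CDDO-Im against WT vehicle (23.3%), for 5 of 24 in CKO CDDO-Im against CKO vehicle (13.2%), for 7 of 24 in CKO against WT under CDDO-Im (21.6%) and for 3 of 24 in CKO vehicle against WT CDDO-Im (26.4%). The first of these counts covers Tiparp 1426721_s_at, Nr1i3, Rxra 1454773_at and Hnf4a probe sets 1427001_s_at, 1421983_s_at and 1427000_at.

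Ahr, the sensor itself, read 10.23, 10.32 and 10.06 in WT livers on vehicle and 10.43, 10.49 and 10.47 on CDDO-Im, with 10.67, 10.29 and 10.10 in CKO livers on vehicle and 10.33, 10.93 and 10.74 on CDDO-Im (brightest probe set, 1422631_at). The order of means was CKO CDDO-Im, WT CDDO-Im, CKO vehicle and WT vehicle, and no neighbouring pair in that order was called. All 3 WT CDDO-Im livers lay above all 3 WT vehicle livers, by 0.26 ± 0.17 in the mean (limma adjusted p = 0.449). The difference from CDDO-Im in CKO livers was 0.32 ± 0.17, and those groups overlapped. The second Ahr probe set, 1450695_at, lay near the brightness filter, at 5.01 to 5.95 over the 12 arrays, and 3 arrays there shared 1 value within 0.001.

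Arnt, the nuclear partner of AhR, read 6.57 or less on every probe set. Its brightest tested one, 1419996_s_at, read 6.33, 6.33 and 6.39 in WT livers on vehicle and 6.50, 6.45 and 6.51 on CDDO-Im, with 6.16, 6.18 and 6.39 in CKO livers on vehicle and 6.11, 6.29 and 6.33 on CDDO-Im. WT CDDO-Im livers were the highest group and overlapped with none of the other groups. CKO CDDO-Im lay 0.24 ± 0.08 below WT CDDO-Im and CKO vehicle 0.25 ± 0.08 below it, and neither difference was called (limma adjusted p = 0.204 and 0.131). On this probe set 3 arrays shared 1 value within 0.001, as did 3 arrays on 1437042_at, so the SEs of both may be too small. The other tested Arnt probe sets differed between CKO and WT vehicle livers by -0.06 ± 0.16 and 0.15 ± 0.24. The remaining Arnt probe sets, 1425064_at and 1449696_at, stood at the lowest value of the table, 2.22, on 11 and 9 of 12 arrays.

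Tiparp, which encodes the mono-ADP-ribosyltransferase that represses AhR and is itself an AhR target, had its highest mean in WT vehicle livers. The probe set 1426721_s_at read 7.99, 8.13 and 7.67 in WT livers on vehicle and 7.77, 7.33 and 7.63 on CDDO-Im, with 7.33, 7.65 and 7.31 in CKO livers on vehicle and 7.65, 7.65 and 7.65 on CDDO-Im. Every CKO vehicle liver lay below every WT vehicle liver, with a mean difference of -0.50 ± 0.15 that was not called (limma adjusted p = 0.0718). Without WT vehicle replicate 3 that difference was -0.63 and was called (limma adjusted p = 0.0373). In WT livers the difference from CDDO-Im was -0.35 ± 0.15, and the groups overlapped. The value 7.65 was shared by 4 arrays within 0.001, a plateau that 18% of tested probe sets show on 3 or more arrays, so the SD of 0 in CKO CDDO-Im livers is no measure of the spread between mice. The limma fit pools the spread of the 4 groups, so the SEs and p-values of 1426721_s_at include that SD of 0 and may be too small. The second probe set, 1452160_at, gave -0.53 ± 0.33 and -0.29 ± 0.33 for the same 2 comparisons, with 4.36 to 5.92 over the 12 arrays. The third, 1452161_at, stayed at 2.84 to 3.44 and was not tested.

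Nr1i3, the gene of the drug sensor CAR, was the only receptor gene with a called rise. Its single probe set, 1425392_a_at, read 11.52, 11.66 and 11.57 in WT livers on vehicle and 11.93, 12.11 and 11.84 on CDDO-Im, with 11.95, 12.26 and 12.04 in CKO livers on vehicle and 11.85, 12.23 and 12.10 on CDDO-Im. The 3 WT vehicle livers were the lowest of the 12, below every CKO liver and every WT liver given CDDO-Im. CKO vehicle exceeded WT vehicle by 0.50 ± 0.12, from 11.58 ± 0.07 to 12.08 ± 0.16 (mean ± SD, n = 3), a 1.42-fold rise with a 95% confidence interval of 1.18 to 1.70 (limma adjusted p = 0.0358). CDDO-Im in WT livers gave 0.38 ± 0.12, a 1.30-fold difference (interval 1.08 to 1.56), which was not called (limma adjusted p = 0.114). These 2 comparisons share the WT vehicle livers and are not independent. In CKO livers the drug gave -0.02 ± 0.12, and the interaction of -0.40 ± 0.17 was not called (limma adjusted p = 0.457). CKO vehicle, CKO CDDO-Im and WT CDDO-Im differed by at most 0.12 in the mean. For Keap1 loss the 4 Hnf4a probe sets gave changes of 0.31 to 0.50 without a call.

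The Nr1i3 call was close to the threshold. It held in 5 of the 12 fits that left out 1 array, with adjusted p-values up to 0.110. It was lost without any 1 of WT vehicle replicate 1, 2 or 3 (0.110, 0.0642 and 0.0739), WT CDDO-Im replicate 2 (0.0515) or CKO vehicle replicate 3, 4 or 5 (0.0591, 0.0981 and 0.0726), while the change itself ran from 0.41 to 0.57 in those limma fits.

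Nr1i2, the gene of the drug sensor PXR, varied between mice more than between groups. The probe set 1451807_at read 8.52, 8.33 and 7.47 in WT livers on vehicle and 8.74, 8.26 and 8.85 on CDDO-Im, with 8.06, 8.005 and 7.94 in CKO livers on vehicle and 7.99, 8.56 and 9.41 on CDDO-Im. The other probe set, 1425723_at, read 7.97, 7.99 and 6.61, then 8.73, 7.67 and 8.65, then 7.71, 7.80 and 7.67, then 7.75, 8.14 and 9.15 in the same order. On both, WT vehicle replicate 3 was the lowest of the 12 arrays and CKO CDDO-Im replicate 4 the highest. CDDO-Im gave 0.51 ± 0.35 and 0.83 ± 0.44 in WT livers and 0.65 ± 0.35 and 0.62 ± 0.44 in CKO livers, with overlapping groups and no call (limma adjusted p = 0.475, 0.341, 0.635 and 0.725). Keap1 loss gave -0.11 ± 0.35 and 0.21 ± 0.44, and the interval for the second, -0.77 to 1.19, includes a 2-fold rise.

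Nr1h4, the gene of the bile acid receptor FXR, read 11.22, 11.52 and 10.69 in WT livers on vehicle and 10.86, 10.96 and 10.84 on CDDO-Im, with 10.72, 10.71 and 10.93 in CKO livers on vehicle and 10.91, 10.71 and 10.77 on CDDO-Im. The spread lay in WT vehicle livers, where replicate 3 was the lowest of all 12 arrays and the other 2 were the highest. The difference between CKO and WT vehicle was -0.35 ± 0.17 and was not called (limma adjusted p = 0.265). Without WT vehicle replicate 3 it was -0.58 and was called (limma adjusted p = 0.0231). The other 3 groups differed by at most 0.10 in the mean.

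Rxra, the gene of the shared partner of CAR, PXR and FXR, had the smallest spread and a probe set that separated the genotypes within each treatment. The probe set 1454773_at read 11.64, 11.73 and 11.67 in WT livers on vehicle and 11.86, 11.88 and 11.83 on CDDO-Im, with 11.47, 11.51 and 11.58 in CKO livers on vehicle and 11.68, 11.62 and 11.70 on CDDO-Im. WT CDDO-Im was the highest group and CKO vehicle the lowest, with no overlap between either of them and any other group, while WT vehicle and CKO CDDO-Im overlapped. CKO vehicle was lower than WT CDDO-Im by 0.34, with a change of -0.34 ± 0.06 or 0.791-fold (95% confidence interval 0.717 to 0.873; limma adjusted p = 0.0215). Its other differences were smaller and not called: -0.16 ± 0.06 for Keap1 loss, 0.18 ± 0.06 and 0.15 ± 0.06 for CDDO-Im in WT and CKO livers, and -0.19 ± 0.06 between the genotypes under the drug (limma adjusted p = 0.167, 0.163, 0.568 and 0.190).

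The second Rxra probe set did not move in parallel. On 1425762_a_at the values were 9.54, 9.62 and 9.78 in WT livers on vehicle and 9.95, 9.99 and 9.77 on CDDO-Im, with 10.07, 9.91 and 9.77 in CKO livers on vehicle and 10.14, 9.72 and 10.30 on CDDO-Im. CKO vehicle against WT CDDO-Im differed there by 0.01 ± 0.15, and Keap1 loss gave 0.27 ± 0.15, neither called (limma adjusted p = 0.972 and 0.305). Which transcripts each probe set reads was not examined. The call on 1454773_at held in 8 of 12 limma fits that left out 1 array and was lost without WT CDDO-Im replicate 2 or 3 (0.0524 and 0.0732) or CKO vehicle replicate 3 or 4 (0.0871 and 0.0572). The third probe set, 1430497_at, stood at the lowest value, 2.22, on all 12 arrays.

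**Figure D2:**
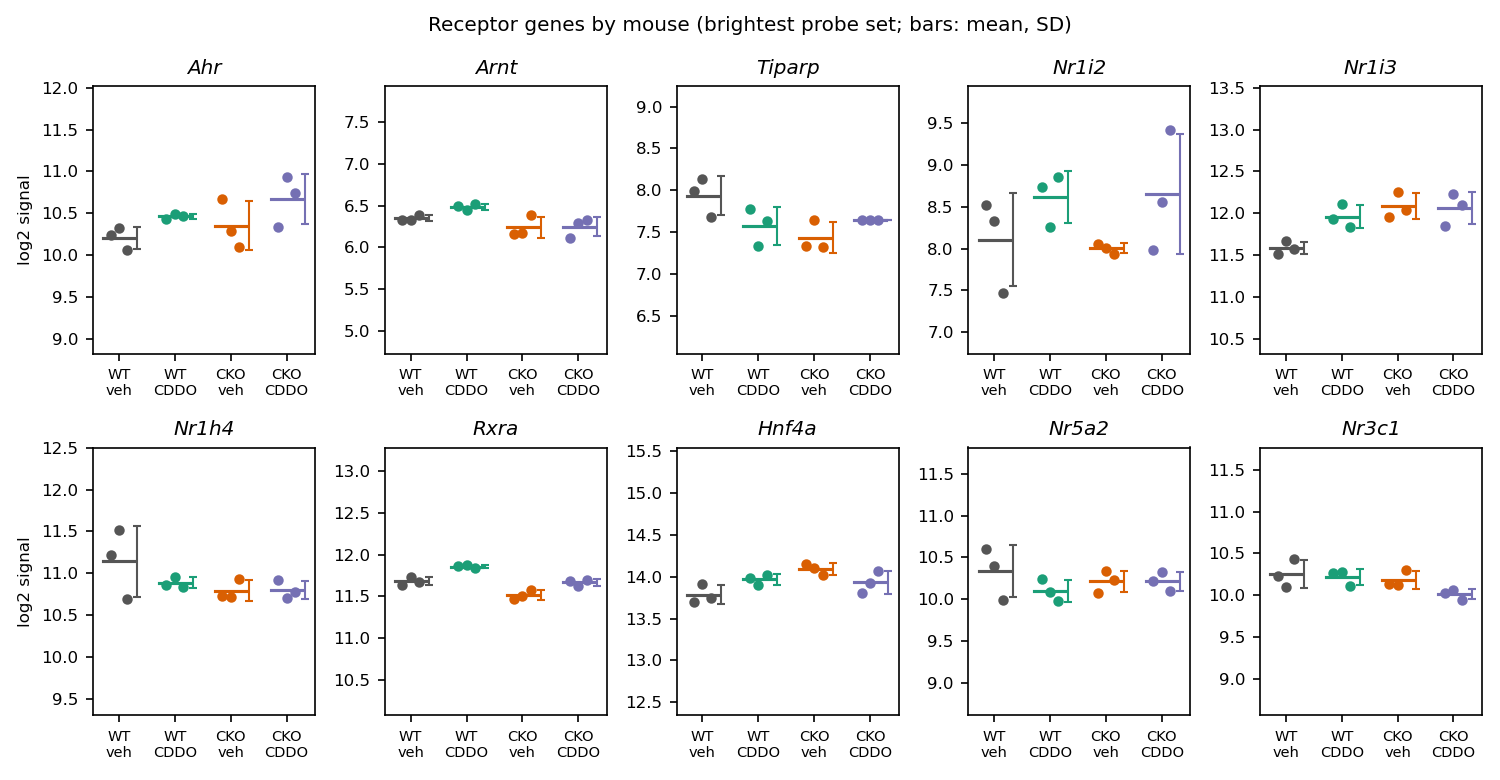
Log2 signal (y axis, the same span in every panel) of the brightest probe set of each receptor gene in the 12 livers, by group (x axis; veh is vehicle and CDDO is CDDO-Im); points are mice, horizontal lines means and error bars SDs over 3 mice. In the Nr1i3 panel the 3 WT vehicle livers, at 11.52 to 11.66, lie below the other 9, and in the Nr1i2 panel the CKO CDDO-Im livers alone run from 7.99 to 9.41.

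Nr3c1, the gene of the glucocorticoid receptor, was lowest in CKO CDDO-Im livers on all 4 tested probe sets. The brightest, 1460303_at, read 10.23, 10.10 and 10.43 in WT livers on vehicle and 10.27, 10.28 and 10.11 on CDDO-Im, with 10.13, 10.12 and 10.31 in CKO livers on vehicle and 10.02, 10.07 and 9.95 on CDDO-Im. The probe set 1421867_at read 10.23, 10.14 and 10.03, then 10.22, 10.06 and 10.15, then 10.04, 10.00 and 10.17, then 9.99, 9.76 and 9.60. On both, every CKO CDDO-Im liver lay below every liver of the other 3 groups. Against WT CDDO-Im the 4 differences ran from -0.36 to -0.16, the largest being -0.36 ± 0.11 on 1421867_at, and none was called (limma adjusted p = 0.130 for that probe set). Against CKO vehicle they ran from -0.33 to -0.17, also without a call. Keap1 loss and CDDO-Im in WT livers moved the 4 probe sets by -0.07 to 0.14. Of the 2 untested probe sets, 1431378_at read 2.39 to 2.63 and 1453860_s_at 3.78 to 4.85.

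Hnf4a, the gene of a nuclear receptor that sustains hepatocyte identity, was higher than in WT vehicle on all 4 probe sets in both CKO vehicle and WT CDDO-Im livers, without a call. The brightest, 1427001_s_at, read 13.70, 13.92 and 13.74 in WT livers on vehicle and 13.99, 13.90 and 14.02 on CDDO-Im, with 14.16, 14.11 and 14.02 in CKO livers on vehicle and 13.80, 13.92 and 14.07 on CDDO-Im. The 3 CKO vehicle livers lay above the 3 WT vehicle livers on this probe set and on 2 others, and the WT CDDO-Im livers did so on 3 of 4. The differences ran from 0.31 to 0.50 for Keap1 loss (limma adjusted p = 0.0746 to 0.271) and from 0.18 to 0.45 for CDDO-Im in WT livers (0.211 to 0.409). CDDO-Im in CKO livers gave -0.21 to -0.05. The interaction was negative on all 4 probe sets, from -0.64 to -0.35, and was not called (limma adjusted p = 0.390 to 0.699). The 4 probe sets read 1 gene in the same 12 livers and are not 4 independent measurements.

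In CKO CDDO-Im livers the Hnf4a probe sets disagreed between mice: 1450447_at read 9.46, 9.14 and 10.21, and 1421983_s_at read 11.72, 11.65 and 12.32, with replicate 4 the highest of the 12 arrays on each. Without that liver 1421983_s_at was called for Keap1 loss at 0.34 (limma adjusted p = 0.0388), for CDDO-Im in WT livers at 0.36 (0.0419) and for the interaction at -0.78 (0.0453). The same liver was the highest on both Nr1i2 probe sets.

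**Figure D3:**
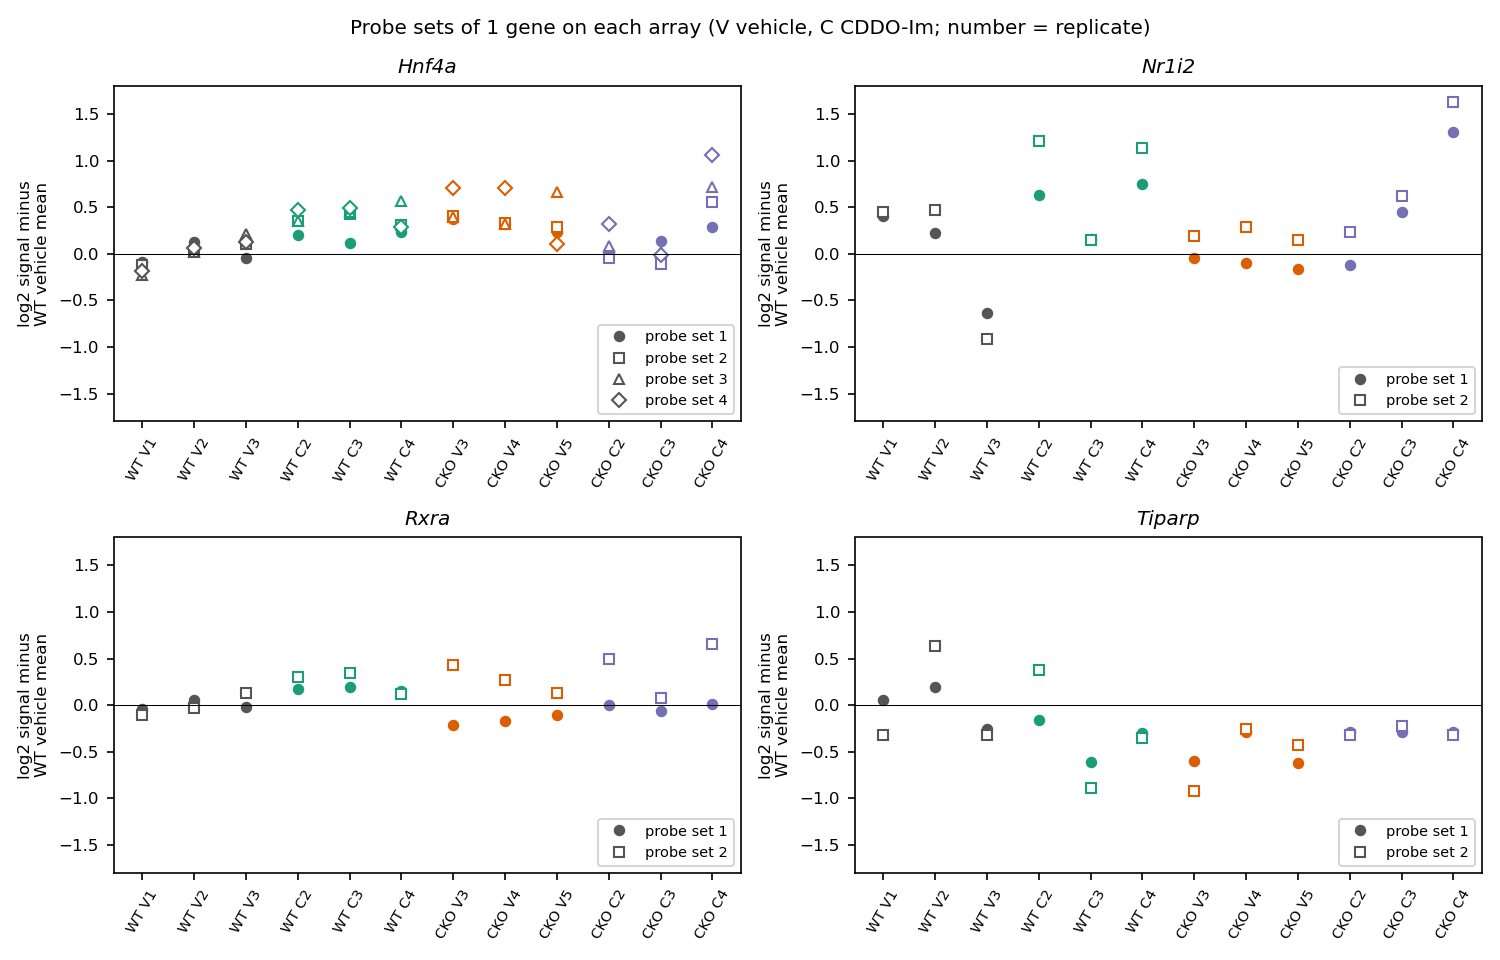
Log2 signal of each tested probe set of Hnf4a, Nr1i2, Rxra and Tiparp minus its mean in WT vehicle livers (y axis) on the 12 arrays (x axis, coloured by group; V is vehicle, C is CDDO-Im and the digit is the replicate label). All 4 Hnf4a probe sets lie above 0 in the CKO vehicle and WT CDDO-Im livers, the 2 Nr1i2 probe sets share their lowest array (WT V3) and highest array (CKO C4), and the 2 Rxra probe sets part in CKO vehicle livers.

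Nr5a2, the gene of LRH-1, a receptor for phospholipids that controls bile acid and cholesterol genes, gave differences of at most 0.23 on every tested probe set in each comparison between groups. The brightest, 1456521_at, read 10.61, 10.40 and 10.00 in WT livers on vehicle and 10.24, 10.09 and 9.98 on CDDO-Im, with 10.08, 10.33 and 10.23 in CKO livers on vehicle and 10.22, 10.33 and 10.10 on CDDO-Im. The 4 group means lay between 10.10 and 10.33 and every pair of groups overlapped. For Keap1 loss its interval ran from -0.45 to 0.20, within a 2-fold change. The fourth Nr5a2 probe set, 1449707_at, stood at the lowest value on 11 of 12 arrays.

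Genes around these receptors were described from lists with 1 probe set per gene, the brightest. Some genes stand on more than 1 list, so list counts are not independent. Fkbp5 is listed both as a chaperone and as a glucocorticoid receptor target, and Tdo2 both as such a target and as a hepatocyte marker. The lists were drawn up with results of these data known, and their counts stand beside 6.37% of 8338 genes called for Keap1 loss and 3.72% for CDDO-Im in WT livers. Of 6 tested genes of the AhR complex and its relatives, 0 were called in any of the 6 comparisons, and the largest difference for Keap1 loss was -0.54 for Epas1, a hypoxia-inducible partner of ARNT. Among 8 receptor chaperones, only Fkbp5 was called for Keap1 loss and for CDDO-Im in WT livers. Of 15 coactivators and corepressors, 0 were called in any comparison, and the largest differences were -0.39 for Tbl1x, a corepressor subunit, under Keap1 loss and 0.68 for Ppargc1b, a coactivator, under CDDO-Im in WT livers.

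Of 18 other nuclear receptors tested, 1 rose and 1 fell with Keap1 loss and 16 were not called. Pparg, the fat-storage receptor, rose by 1.27 ± 0.21 (limma adjusted p = 0.00790), from 6.72, 7.28 and 6.57 in WT vehicle to 8.18, 8.17 and 8.03 in CKO vehicle livers. Ppara, the fatty acid oxidation receptor, fell by 1.02 ± 0.26 (limma adjusted p = 0.0446), from 11.83, 11.72 and 10.97 to 10.70, 10.64 and 10.13. On CDDO-Im Ppara was not lower in CKO livers, at 11.60, 10.85 and 11.54 beside 10.89, 10.76 and 10.78 in WT livers. Its interaction of 1.54 ± 0.37 was not called (limma adjusted p = 0.152). The call of Pparg held in 12 of 12 fits without 1 array and was lost without a filter on low values and with the replicate block (limma adjusted p = 0.0529 and 0.199). That of Ppara held in 3 of 12, those without WT vehicle replicate 3 or CKO CDDO-Im replicate 2 or 3, and its limma adjusted p reached 0.143 in the others. CDDO-Im in WT livers raised Ppard, a relative of Ppara, by 0.63 ± 0.13 and lowered Nr2f2, an orphan receptor, with a change of -0.67 ± 0.12 (limma adjusted p = 0.0242 and 0.0160). The Ppard call was lost without WT vehicle replicate 1 or 2 or WT CDDO-Im replicate 3 or 4, and that of Nr2f2 without WT vehicle replicate 3 or WT CDDO-Im replicate 4 (limma adjusted p up to 0.0810 and 0.0575).

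Targets of AhR were mostly too dim to test: 2 of 6 measured genes passed the filter. Nqo1, which Nrf2 also controls, is described above. Cyp1a2, named here after its values were seen, read 14.28, 13.36 and 13.54 in WT vehicle against 14.16, 14.60 and 14.44 in CKO vehicle livers, a difference of 0.67 ± 0.22 that was not called (limma adjusted p = 0.105). The same WT vehicle livers overlapped with the WT CDDO-Im livers, at 14.54, 14.43 and 14.17, where the difference was 0.65 ± 0.22, also not called. Without WT vehicle replicate 1 the differences were 0.95 and 0.93, and both were called (limma adjusted p = 0.0159 and 0.0205).

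Targets of CAR and PXR had 5 of 19 that rose with Keap1 loss, 0 that fell and 14 not called, with a median change of 0.51 beside -0.01 over all genes. They were the efflux transporters Abcc3 (0.75 ± 0.13) and Abcc2 (0.69 ± 0.12), the cytochrome Cyp3a13 (0.59 ± 0.15), the glutathione transferase Gstm1 (0.58 ± 0.08) and the stress gene Gadd45b (0.51 ± 0.09), of which Cyp3a13 was named after its values were seen. Gadd45b lay near the brightness filter of log2 5, at 4.89, 5.00 and 5.17 in WT vehicle livers, and 3 arrays there shared 1 value within 0.001. Abcc2, Abcc3 and Gstm1 are known as Nrf2 targets as well. CDDO-Im in WT livers raised Abcc3 by 0.55 ± 0.13 and Gstm1 by 0.37 ± 0.08, and 17 of 19 were not called (median 0.17). Calls under CDDO-Im were lost without WT vehicle replicate 1, 2 or 3, WT CDDO-Im replicate 3 or 4 or CKO CDDO-Im replicate 3 (0 of 19 each), and 1 of 19 was called without WT CDDO-Im replicate 2, CKO vehicle replicate 3 or 4 or CKO CDDO-Im replicate 2 or 4. For Keap1 loss the count without 1 array was 4 to 7; the Cyp3a13 call held in 2 of 12 such limma fits (adjusted p up to 0.147), those without CKO vehicle replicate 4 or CKO CDDO-Im replicate 2, and the other 4 calls in 12 of 12.

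The textbook targets of the 2 drug sensors, chosen after their values were seen, did not pass with all 12 arrays. Cyp2b10, the standard CAR target, read 7.23, 3.61 and 6.72 in WT livers on vehicle and 5.77, 5.77 and 7.41 on CDDO-Im, with 8.42, 8.55 and 7.71 in CKO livers on vehicle and 7.39, 8.33 and 8.56 on CDDO-Im. All 3 CKO vehicle livers lay above all 3 WT vehicle livers, by 2.37 ± 0.83 (limma adjusted p = 0.125), and WT vehicle replicate 2 was the lowest of the 12. Cyp3a11, the standard PXR target, read 15.96, 15.79 and 16.10 in WT vehicle and 13.82, 15.77 and 14.43 in CKO vehicle livers, a difference of -1.28 ± 0.37 (limma adjusted p = 0.0704) that was -1.82 and called without CKO vehicle replicate 4 (0.000594). On CDDO-Im it read 15.83, 15.80 and 15.96 in WT and 15.73, 15.56 and 15.60 in CKO livers. The genotypes differed there by -0.23, which was not called (limma adjusted p = 0.801).

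Of 14 FXR targets tested, 0 were called in any comparison; the largest difference under Keap1 loss was -0.67 for Nr0b2, the repressor SHP that FXR induces. Of 20 targets of HNF4α and LRH-1, 1 was called: Fabp1, a fatty acid carrier, fell by 0.79 ± 0.16 with Keap1 loss, from 14.91, 14.94 and 14.83 to 13.98, 14.52 and 13.81 (limma adjusted p = 0.0163), and 19 were not called. Its call was lost without WT vehicle replicate 1 or 2 or CKO vehicle replicate 3 (limma adjusted p up to 0.0716).

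Glucocorticoid receptor targets had 6 of 22 that rose with Keap1 loss and 16 not called (median 0.30), and 7 of 22 that rose with CDDO-Im in WT livers and 15 not called (median 0.91). The largest rises were those of the metallothioneins Mt2 and Mt1, metal-binding proteins that metals and stress also induce, by 5.94 ± 0.55 and 4.89 ± 0.46 with Keap1 loss and by 5.23 ± 0.55 and 4.32 ± 0.46 with CDDO-Im. Fkbp5, a chaperone that dampens the receptor, read 9.77, 9.57 and 9.00 in WT livers on vehicle and 11.36, 10.16 and 11.51 on CDDO-Im, with 11.31, 10.85 and 10.94 in CKO livers on vehicle and 11.46, 11.66 and 11.95 on CDDO-Im. It rose by 1.59 ± 0.33 with Keap1 loss and by 1.57 ± 0.33 with CDDO-Im (limma adjusted p = 0.0200 and 0.0292). The first call was lost without WT vehicle replicate 2 or 3 or CKO vehicle replicate 3, and the second without WT vehicle replicate 2 or 3 or WT CDDO-Im replicate 2 or 4 (limma adjusted p up to 0.0836 and 0.107). Cebpd, Got1 and Tdo2 rose in both comparisons and Cebpb with CDDO-Im, by 0.34 to 1.71, and these 4 were named after their values were seen. The interaction was called for Mt1 and Mt2 (-4.03 ± 0.65 and -4.62 ± 0.78; limma adjusted p = 0.0374 and 0.0467).

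These list counts depended on single livers. Without CKO vehicle replicate 3 the count for Keap1 loss was 3. The count for CDDO-Im in WT livers was 2 without WT CDDO-Im replicate 4, 3 without WT vehicle replicate 2 or 3 and 4 without WT CDDO-Im replicate 2. The Mt1 and Mt2 rises held in 12 of 12 fits without 1 array in both comparisons, and their interaction calls in 2 and 3 of 12, both without WT vehicle replicate 2, that of Mt1 also without WT vehicle replicate 1 and that of Mt2 without WT vehicle replicate 3 or WT CDDO-Im replicate 3. The Nr3c1 probe sets, by comparison, differed by at most 0.14 in those same 2 comparisons.

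**Figure D4:**
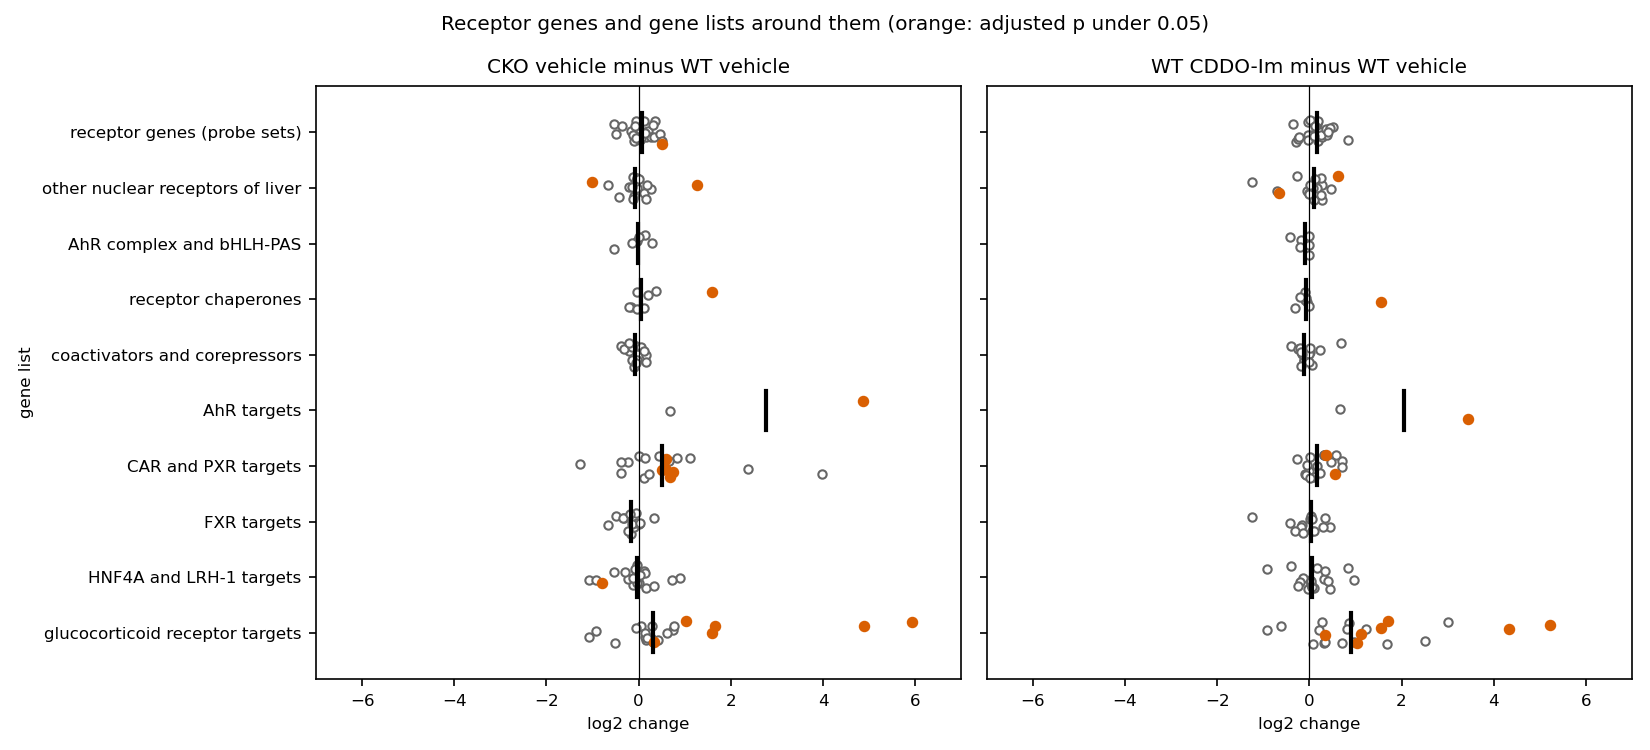
Log2 change (x axis) of the 24 receptor probe sets and of each tested gene of the lists around them (y axis), for Keap1 loss (left) and CDDO-Im in WT livers (right); orange points are called at a limma adjusted p under 0.05 and black bars are medians. Receptor probe sets and coactivators stay within 0.83 of 0, while Mt2, in the bottom row, reaches 5.94 and 5.23.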

How the data were processed

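The deposited table holds log2 signals for 45101 probe sets on 12 arrays, made by the authors with GCRMA 2.12.1 (R 2.7.0), according to what is recorded per the submitters' processing notes; other settings are not given in the sources read here. GCRMA places probe sets without signal at a shared low value, 2.22 here, so changes near it depend on its background model. The platform annotation pairs 34945 probe sets with 1 gene, 932 with several and 9160 with none, and 64 are controls. Probe sets were tested where at least 3 arrays exceeded log2 5, which left 13298.

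All 12 arrays entered a limma 3.58.1 fit of 4 group means (R 4.3.3; lmFit, eBayes; 8 residual and 2.36 prior degrees of freedom), with two-sided p-values adjusted by Benjamini-Hochberg over the 13298 and called under 0.05. Scripts were tested on simulated data. Receptor genes and lists were chosen with earlier results of these data known. By rule, each list's 2 largest called rises and falls per comparison could be named, or its largest change where none was called; genes resembling a receptor gene needed a called log2 change of at least 1, which 0 had. Alternatives were other scalings, filters, probe sets, samples, priors, a replicate block and leaving out each array. The labels do not say whether replicate numbers pair the livers, and the main fit did not pair them. Same-numbered livers of different groups deviated with correlations of -0.18 to 0.13, and 3 of 12 pairs exceeded 0.1. Their median was 0.041, beside 0.0073 for other pairs of livers. With 3 livers per group these correlations cannot settle whether the numbers pair livers.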

Additional observations from a re-analysis of the deposited data

How the results depend on the processing

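Over 2742 changes of receptor probe sets under the alternatives, 2721 kept their call or lack of one in the same direction or were uncalled throughout, 16 lost a call, 5 gained one and 0 reversed while called; 124 uncalled changes switched sign. Calls among receptor probe sets were 0 for Keap1 loss without a filter on low values, and 0 both for Keap1 loss and for CKO vehicle against WT CDDO-Im when only the groups compared were fitted. With the replicate block, too, both counts were 0, and Nr1i3 and Rxra 1454773_at had limma adjusted p-values of 0.341 and 0.0911; for livers given CDDO-Im, 4 of 6 correlated best with their own number.

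Leaving out 1 array gave 0 to 2 receptor calls for Keap1 loss, and 0 to 1 for CKO vehicle against WT CDDO-Im, for CDDO-Im in WT livers and for the interaction. The fit without a filter adjusts for more probe sets and also estimates limma's prior anew from them. Calls over all tested probe sets (828 for Keap1 loss, 526 for CDDO-Im in WT livers, 0 for CDDO-Im in CKO livers, 195 between genotypes under CDDO-Im, 496 for CKO vehicle against WT CDDO-Im and 42 for the interaction) became, in that order, 286, 168, 1, 37, 133 and 13 without a filter and 112, 217, 5, 46, 226 and 8 with the replicate block. With only the groups compared they were 340, 183, 83 and 131 for Keap1 loss, CDDO-Im in WT livers, the genotypes under CDDO-Im and CKO vehicle against WT CDDO-Im. With the brightest probe set per gene, which tests fewer probe sets, they were 543, 304, 128 and 23 for Keap1 loss, CDDO-Im in WT livers, the genotypes under CDDO-Im and the interaction. Without 1 array they ran from 375 (without CKO vehicle replicate 3) to 815, 190 (without WT CDDO-Im replicate 4) to 541, 0 to 2, 49 (without WT CDDO-Im replicate 3) to 187, 148 (without CKO vehicle replicate 3) to 509 and 6 (without CKO CDDO-Im replicate 3) to 50, in the first order.

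Beside these, calls of CAR and PXR targets for Keap1 loss fell from 5 to 1 with only the groups compared and to 0 with the replicate block, and those of glucocorticoid receptor targets from 6 to 3 without a filter or with only the groups compared. For CDDO-Im in WT livers the latter fell from 7 to 3 without a filter and to 2 with only the groups compared, and the 2 calls of CAR and PXR targets fell to 0 in each of those settings and with the replicate block. The 2 calls among other nuclear receptors fell, for Keap1 loss, to 0 without a filter or with the block and to 1 with only the groups compared, and, for CDDO-Im in WT livers, to 0 in all 3 settings and to 1 with the filter at log2 7. The Mt1 and Mt2 interaction calls were both lost without a filter and with the block. List counts under alternatives were added after seeing the data. The cause of these shifts was not tested. Signal over background limits Arnt, the dim probe sets of Ahr and Tiparp and the 7 untested probe sets.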
